A study of Mus musculus with 15 samples.

Results

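The Il10 locus was examined as a window of 80 kb on mouse chromosome 1, from 132880000 to 132960000 in build mm9, in which Il10 lies at about 132.916 to 132.922 Mb. All DNase hotspots of the 15 deposited lists that overlapped this window were taken, which gave 149 hotspots of 1124658 in all lists. Hotspots that overlapped by 1 bp or more between lists were merged into elements, and the window held 24 of the 324185 elements of the genome. Elements are named by the distance of their centre from the start of the Il10 interval in kb, with negative values toward lower coordinates.

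DNase-seq had been done on macrophages grown from bone marrow of C57BL/6J mice. DNase-seq marks chromatin that DNase I digests readily, and a hotspot is a stretch where the cut fragments pile up. Cells were labelled Ikzf KO (2 libraries per time), littermate control (1 per time) or wild type (WT, 2 per time) and had received 10 ng/ml lipopolysaccharide (LPS), a bacterial cell wall component sensed by Toll-like receptor 4, for 0, 3 or 8 h. The series title names Ikaros, the product of Ikzf1. The labels give no allele or age of the mice and do not tell whether replicates are separate animals or separate cultures. P-values thus cover the spread among these libraries alone, and that spread may be technical. Titles give 100 U of DNase for WT replicate 2 and 80 U for every other library.

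Il10 encodes interleukin-10, a secreted cytokine that macrophages make after Toll-like receptor stimulation and that restrains inflammation through its receptor and the transcription factor STAT3. The gene sits in a cluster with the related cytokine genes Il19, Il20 and Il24 on one side and with Mapkapk2, a kinase gene of the p38 pathway, on the other. Distal regulatory elements on both sides of Il10 are known from immune cells. Ikaros is a zinc finger DNA-binding protein of blood cells that is known as a regulator of Il10 in mouse T cells.

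The libraries differed in list length and strength. KO lists held 111553 to 132279 hotspots, littermate lists 52400 to 114427 and WT lists 15659 to 51834. KO lists reached down to Z-scores of 3.40 to 3.66, littermate lists to 3.65 to 4.54 and WT lists to 7.98 to 10.6. The hotspot at rank 15659 had a Z-score of 25.1 to 40.01 in KO libraries and 25.8 to 27.3 in control libraries at 8 h, but only 8.48 to 11.4 in control libraries at 0 and 3 h. An element missing from a WT or an early control list may therefore lie below that list's end. The lists hold no read counts. Highest tag densities were whole multiples of a step of 0.237 to 0.32 in KO and 0.251 to 0.451 in control libraries, and if libraries were scaled to one total, a smaller step means a deeper library. The part of depth and list length in the differences between KO and controls was not tested. How densities were scaled between libraries is not stated in the labels, so they are described library by library. A hotspot in more cells and a stronger hotspot in fewer cells cannot be told apart.

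The KO lists as deposited, which are mostly the longer ones, held more hotspots in the Il10 window than the control list or lists of the same time. KO replicate 1 listed 14, 17 and 17 hotspots and KO replicate 2 listed 15, 21 and 16 at 0, 3 and 8 h. The littermate library listed 6, 8 and 13. WT replicate 1 listed 0, 1 and 10, and WT replicate 2 listed 1, 1 and 9. Of the 24 elements, 11 were in KO and control lists, 11 in KO lists only and 2 in control lists only. Across the genome, 56.1% of elements were in KO lists only and 17.9% in control lists only, and the window's 11 and 2 of 24 are read against these shares. No element was in all 15 lists, and 10 were in all 6 KO lists, a pattern of 18.4% of all elements.

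**Figure D1:**
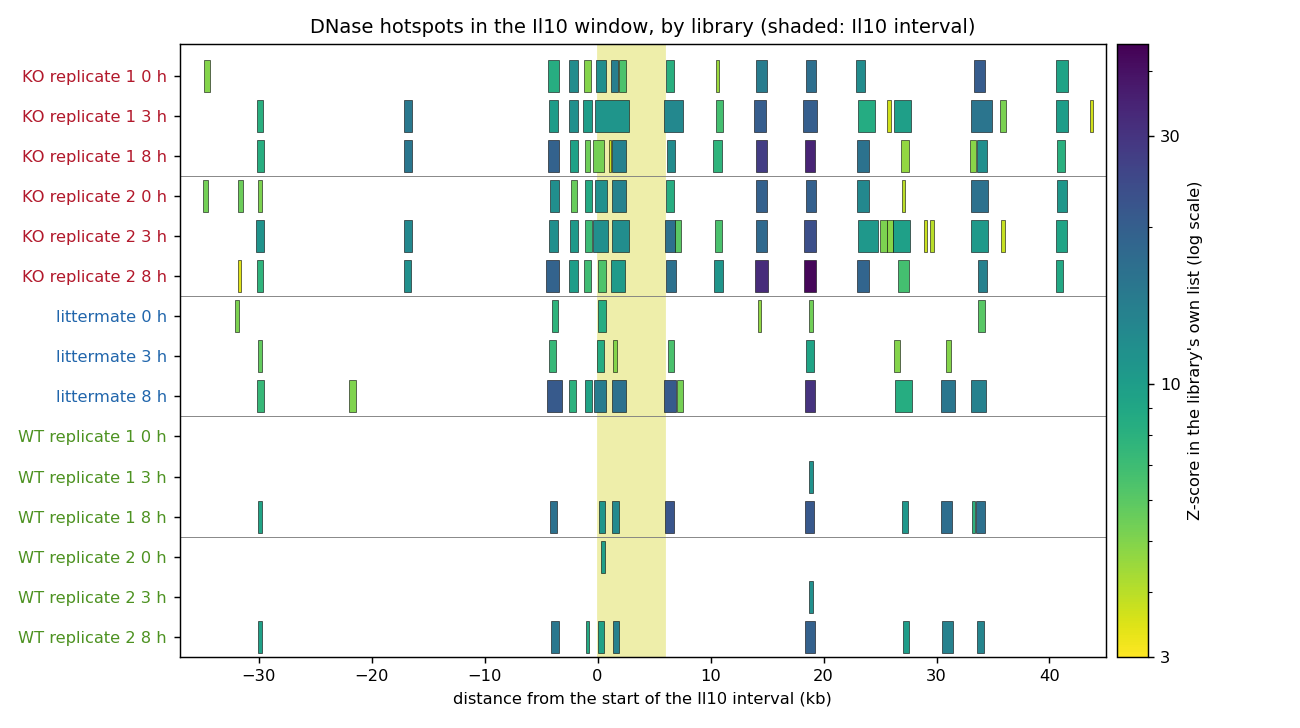
Hotspots of the Il10 window in each of the 15 lists as deposited, by distance from the start of the Il10 interval in kb. Each box is 1 hotspot drawn to scale and coloured by its Z-score in its own list (log scale), and the shaded band is the Il10 interval. The KO rows hold 14 to 21 hotspots, whereas the WT rows at 0 and 3 h hold 0 or 1.

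In the lists as deposited, the stretch of the window under hotspots was widest in KO at 3 h. In KO, 10403 and 11695 bp were covered at 0 h, 18315 and 18114 bp at 3 h, and 13131 and 13101 bp at 8 h. The littermate library had 2743, 3894 and 12548 bp at these times. WT replicate 1 had 0, 340 and 6175 bp, and WT replicate 2 had 331, 329 and 5539 bp. In order, the groups were KO at 3 h (18214.5 ± 142 bp, SD, n = 2), KO at 8 h (13116 ± 21.2 bp), the littermate at 8 h, KO at 0 h (11049 ± 914 bp), WT at 8 h (5857 ± 450 bp), the littermate at 3 h and at 0 h, WT at 3 h (334.5 ± 7.78 bp) and WT at 0 h (165.5 ± 234 bp). The last 2 groups overlapped. Per Mb of all hotspots of the list, which scales by list size, the window had 113, 176 and 122 bp at 0, 3 and 8 h in KO replicate 1 and 129.5, 188 and 115 bp in replicate 2, against 76.6, 131 and 138 bp in the littermate, 0, 32.2 and 152 bp in WT replicate 1 and 23.3, 23.3 and 125 bp in WT replicate 2. On this scale KO was above the controls at 0 and 3 h and below all 3 control libraries at 8 h. The littermate groups are single libraries with no spread of their own. With KO lists cut to 111553 hotspots each, 3 h still had the widest cover, and the covered length was 10403, 17774 and 12873 bp in replicate 1 and 11695, 18114 and 12849 bp in replicate 2.

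At equal list length the order of KO and littermate depended on the time. With the 52400 best hotspots of each list, KO covered 8458 and 9629 bp at 0 h, against 2490 bp in the littermate. At 3 h KO covered 14554 and 14384 bp, against 3894 bp. At 8 h KO covered 7545 and 6619 bp, against 10915 bp in the littermate, so both KO libraries were then below it. Over the 3 times KO covered 10198 ± 3455 bp (SD, n = 6) and the littermate 5766 ± 4514 bp (SD, n = 3). These SDs, like those of the KO and littermate ranks below, pool the 3 times and are not a spread of replicates. For the difference of 4432 bp, exact permutation gave a two-sided p of 0.148, adjusted to 0.214 over 9 tests. This test took the times of a series as separate libraries. With each series kept whole, exact permutation gave p = 0.333, the smallest that 3 arrangements allow. With lists of 0.5 times the length of 52400 hotspots the difference was -264.7 bp.

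**Figure D2:**
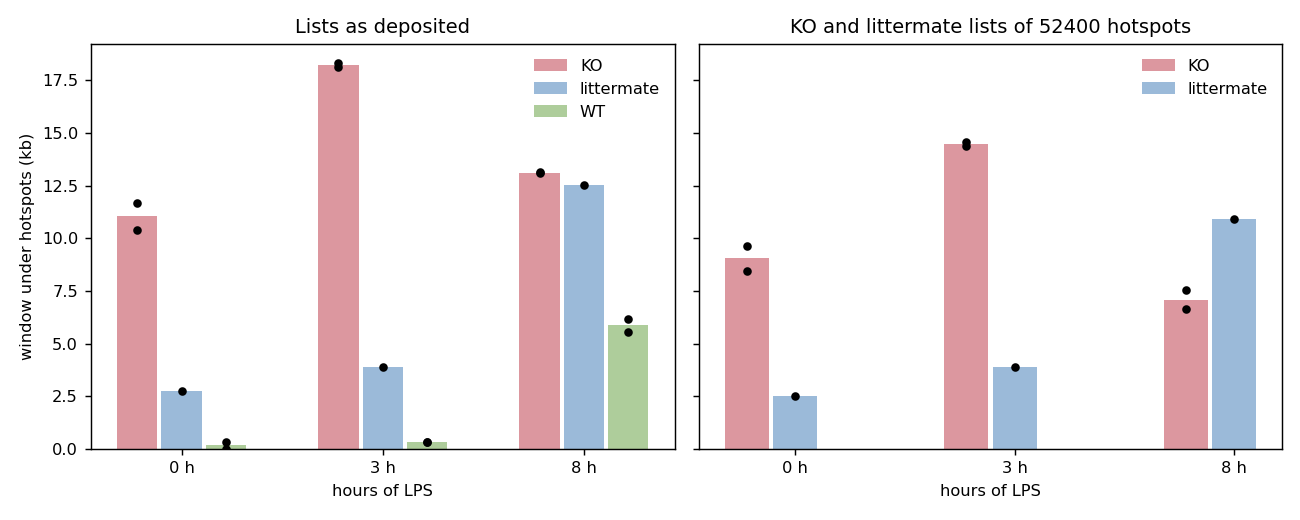
Length of the Il10 window under hotspots in kb by hours of LPS, in the lists as deposited (left) and in KO and littermate lists of 52400 hotspots (right). Bars are group means and points single libraries; at equal length KO is above the littermate at 0 and 3 h and below it at 8 h.

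The best hotspot of the window ranked higher in the littermate than in KO at each time. Ranks count from 1 for the highest Z-score of a list, so a low number is a strong hotspot. The best ranks were 20804, 24483 and 16334 at 0, 3 and 8 h in KO replicate 1 and 21288, 20362 and 14098 in replicate 2. The littermate had 18119, 13657 and 13694. The mean rank was 19562 ± 3732 in KO (SD, n = 6) and 15157 ± 2566 in the littermate (SD, n = 3), and for the difference of 4405 places exact permutation gave a two-sided p of 0.037, which is the smallest that 27 arrangements allow. The adjusted p of 0.167 did not pass 0.05. This test took the times of a series as separate libraries. With each series kept whole, exact permutation gave p = 0.333, the smallest that 3 arrangements allow. Ranked by highest tag density instead of Z-score, the difference was -433.8 places, so its direction rests on the score used. The littermate lists at 0 and 3 h were also those with low Z-scores at equal rank.

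Within the interval given for Il10, which was not taken from an annotation, hotspots of the merged element at +1.2 kb, from 132915636 to 132918772, were found in all 6 KO lists, all 3 littermate lists and 3 of 6 WT lists. It merges a hotspot over the start of the Il10 interval and one further into the interval, which ran together in KO replicate 1 at 3 h. The hotspot over the first 500 bp of the interval ranked 37389, 45138 and 79019 at 0, 3 and 8 h in KO replicate 1 and 37406, 41059 and 73341 in replicate 2. In the littermate it ranked 18119, 15592 and 30913. In WT it was listed at 0 h in replicate 2 at rank 19207, in neither library at 3 h, and at ranks 36115 and 45717 at 8 h. At 8 h all 3 control libraries thus had it above both KO libraries by rank number. The WT lists at 8 h ended at 48084 and 51834 hotspots, so any hotspot they held would rank above those of KO here. Of the controls, only the littermate list, with 114427 hotspots, ran past the KO ranks. By Z-score, the hotspot over the first 500 bp was lower at 8 h than at 0 h in KO and higher in the littermate. Its Z-scores were 11.99, 10.93 and 5.29 at 0, 3 and 8 h in KO replicate 1 and 11.67, 11.79 and 6.36 in replicate 2. The littermate had 8.501, 8.503 and 14.55, below KO at 0 and 3 h and above it at 8 h. WT replicate 2 had 9.98 at 0 h and 9.53 at 8 h.

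Set against the +18.8 kb element of the same library, which needs no scaling between libraries, the start of the interval was lower in KO at 8 h, as was every other element listed in KO and controls at that time. The ratio of its highest tag density to that of the +18.8 kb element was 0.191 and 0.214 in KO at 8 h, against 0.739 in the littermate and 0.551 and 0.548 in WT. At 3 h it was 0.631 and 0.696 in KO and 0.938 in the littermate. At 0 h it was 0.8 and 0.66 in KO and 1.55 in the littermate. The groups did not overlap at any of these times, but this ratio was chosen after its values were seen and is given without a test. At 8 h the highest density over the start was 5.86 and 7.35 in KO, 17.0 in the littermate and 9.03 and 7.98 in WT. The +18.8 kb element, the denominator, had 30.7 and 34.4 in KO, 23.0 in the littermate and 16.4 and 14.6 in WT. At -3.8 kb, for example, the ratio at 8 h was 0.391 and 0.386 in KO, against 0.71 in the littermate and 0.898 and 0.905 in WT, so the low ratio in KO was not particular to the start of the interval.

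By rank number, the best hotspot that overlaps the Il10 interval, wherever in it, stood lower in KO than in the littermate at every time. Its ranks were 31606, 39764 and 42446 at 0, 3 and 8 h in KO replicate 1 and 32103, 29764 and 55487 in replicate 2. In the littermate they were 18119, 15592 and 21045. Z-scores of these hotspots were instead higher in KO at 0 and 3 h. They were 14.3, 12.8 and 13.8 at 0, 3 and 8 h in KO replicate 1. In replicate 2 they were 13.7, 16.8 and 10.4, and in the littermate 8.501, 8.503 and 21.2. As a share of list length the ranks were 28.3%, 32.97% and 33.9% in KO replicate 1. These shares were 28.5%, 25.5% and 41.9% in replicate 2 and 28.2%, 29.8% and 18.4% in the littermate. Both scales thus had KO lower at 8 h alone, with shares close together at 0 h and overlapping at 3 h. At the equal length of 52400 hotspots the KO replicate 2 library at 8 h had none and was set to 52401. The mean ranks were then 38014 ± 8646 in KO and 18252 ± 2729 in the littermate. For the difference of 19762 places exact permutation gave a two-sided p of 0.037, again the smallest possible, and an adjusted p of 0.167. With each series kept whole, exact permutation gave p = 0.333, the smallest that 3 arrangements allow. The difference was 6411 places when hotspots were ranked by density. With WT added to the controls and lists of 15659 hotspots it was 7.56 places, since in such short lists the interval had a hotspot in the littermate at 3 h alone.

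The element at +18.8 kb, from 132934151 to 132935406, was in more lists than any other element of the window, with 13 of 15, and it was absent from the WT lists at 0 h. Its Z-scores were 17.0, 20.2 and 34.5 at 0, 3 and 8 h in KO replicate 1 and 19.8, 23.4 and 43.0 in replicate 2. In the littermate they were 5.41, 9.27 and 30.3. In WT they were 11.3 at 3 h and 21.6 at 8 h in replicate 1, and 11.7 and 19.5 in replicate 2. It took the first place among the elements of its library in 4 of 6 KO lists, in the littermate at 3 and 8 h, in both WT lists at 3 h and in WT replicate 2 at 8 h.

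It stood higher in rank after LPS wherever a direction could be read. It ranked 26387, 24910 and 16334 at 0, 3 and 8 h in KO replicate 1 and 21288, 20362 and 14098 in replicate 2. In the littermate it ranked 37720, 13657 and 13694. In WT it was beyond the ends of the 0 h lists at 17237 and 21377 and at rank 14260 and 14602 at 3 h, so at 3 h it stood higher than at 0 h in all 5 series of libraries. At 8 h it ranked 19174 and 21883 in WT, past the ends of the 0 h lists, so WT shows no direction there. It ranked higher at 8 h than at 0 h in both KO series and the littermate series.

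**Figure D3:**
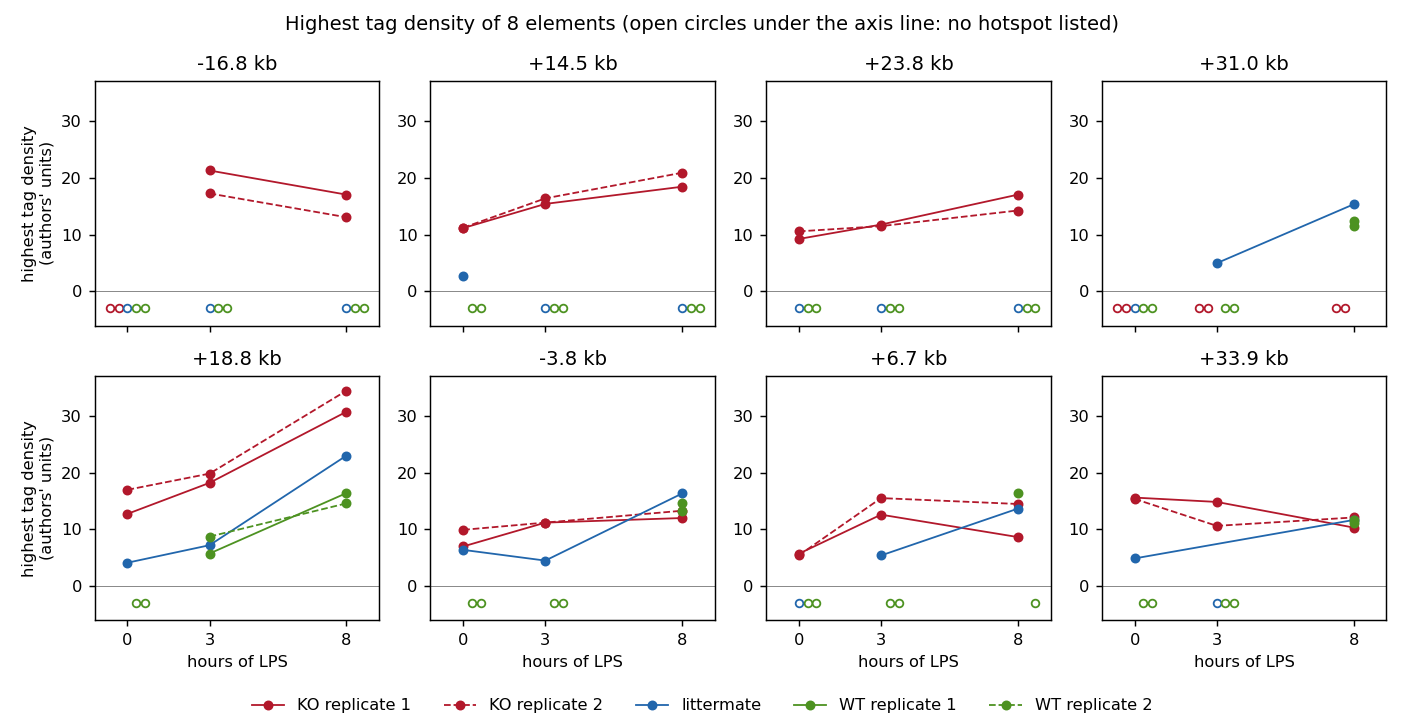
Highest tag density, in the authors' units, of 8 elements of the Il10 window by hours of LPS. Lines join the libraries of a series that list the element, and open circles under the axis line stand for libraries that list no hotspot there; scaling between libraries is not stated. The +31.0 kb panel has values in controls only, and the -16.8 and +23.8 kb panels in KO only.

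The +18.8 kb element alone carried the LPS comparison over all 5 series at 8 h. With lists of 17237 hotspots, the length of the shortest 0 h list, the window had 963 and 1038 bp in KO at 8 h, 926 bp in the littermate and 0 bp in both WT libraries, against 0 bp in all 5 libraries at 0 h. For the mean difference of 585.4 bp exact permutation gave a two-sided p of 0.167, adjusted to 0.214. The best rank in the window averaged 15720 ± 1712 at 8 h (SD, n = 5) and 17238 at 0 h, where absence was set to 17238. This difference of -1518 places also had p = 0.167 by exact permutation. It was -3478 places without WT replicate 1, -5362 in KO and littermate alone, and -5022 when ranked by density, where the exact permutation p was 0.0278 and the adjusted p 0.125. No hotspot of the Il10 interval was within 17237 places in any of these 10 libraries, so that comparison has no information at this length.

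At 3 h equal lists kept hotspots in controls and none in KO. With lists of 15659 hotspots the window had 0 bp in both KO libraries at 3 h, 1258 bp in the littermate and 340 and 329 bp in WT, against 0 bp in all 5 libraries at 0 h. For the mean difference of 385.4 bp exact permutation gave p = 0.167, adjusted to 0.214. The hotspots were those at +18.8 kb and, in the littermate, also the start of the interval. The cut fell at a Z-score of 28.5 and 28.7 in KO at 3 h, but at 8.48 to 11.1 in the controls. The +18.8 kb element was thus cut from the KO lists with Z-scores of 20.2 and 23.4. It was kept in the controls with 9.27 to 11.7. Its absence from the shortened KO lists is therefore no sign of a weaker hotspot in KO. The smallest p that the 72 arrangements allow is 0.0278. The change to 8 h did not differ detectably between genotypes: it was 963 and 1038 bp in KO, against 926, 0 and 0 bp in the 3 control series, with an exact permutation p of 0.2, adjusted to 0.6 over 3 values, where 10 arrangements cannot go below 0.1. With lists this short, 1 element of the window was in any list of 8 or 0 h and 2 in any of 3 or 0 h, too few to read against the genome. Of that 1 element, 0 were gained (in the 5 lists at 8 h without any at 0 h), lost (the reverse) or in all 10 lists, where all elements had 1.77%, 0.708% and 31.1%. Of the 2 for 3 h the counts were 0 as well, where all elements had 0.902%, 0.703% and 28.3%.

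Of the elements beyond the interval, 1 was strong in KO and almost missing from control lists, and 3 weaker ones of those in at least 5 lists were in KO lists only. The element at +14.5 kb, from 132929897 to 132931060, was in all 6 KO lists and in 1 control list. Its Z-scores were 14.6, 20.5 and 27.9 at 0, 3 and 8 h in KO replicate 1 and 19.5, 18.1 and 32.3 in replicate 2. The littermate library at 0 h listed it with a Z-score of 4.70 and a highest density of 7 steps, and no other control library listed it. It was the second strongest element of the window in both KO libraries at 8 h, at ranks 21465 and 20666, whereas the control lists at 8 h ran to 114427 hotspots in the littermate and 48084 and 51834 in WT without it.

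The elements at +23.8 kb, from 132938921 to 132940773, and at +41.1 kb, from 132956598 to 132957650, each had a hotspot in the 6 KO lists and no control list. This held for 2 of the window's 24 elements and for 1.78% of all elements of the genome. The +23.8 kb element had Z-scores of 12.1, 8.53 and 16.3 at 0, 3 and 8 h in KO replicate 1 and 12.8, 10.6 and 18.9 in replicate 2. Its ranks were 36954, 54004 and 37113 at 0, 3 and 8 h in KO replicate 1 and 34383, 44623 and 35977 in replicate 2. It took places 4 to 12 by Z-score among the elements of its library. The +41.1 kb element took places 7 to 12 and had ranks of 45810, 48058 and 60916 at 0, 3 and 8 h in KO replicate 1 and 39998, 49323 and 60879 in replicate 2, lower after LPS in both KO series. The littermate list at 8 h was longer than all of these ranks and held neither. All WT lists at 0 and 3 h ended before these ranks. Against the littermate alone and in the lists as deposited, the same pair was in all KO and no littermate list, as were 1.81% of all elements.

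The element at +10.7 kb, from 132926234 to 132927091, was likewise in KO lists only, but weakly. It was listed with a Z-score of 4.49 in KO replicate 1 and not in replicate 2 at 0 h, with 6.76 and 6.50 at 3 h, and with 7.75 and 11.0 at 8 h. Most of these values lie under the Z-scores at which WT lists end. The littermate list at 8 h reached down to 3.65 without it.

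An element upstream of Il10 was listed in KO after LPS alone. It lies at -16.8 kb, from 132898848 to 132899545, was in 4 lists and is described because of its pattern. It was in neither KO library at 0 h. Its Z-scores were 15.3 and 12.7 in KO at 3 h and 15.5 and 11.7 at 8 h, with highest tag densities of 21.3 and 17.2 at 3 h and 17.0 and 13.0 at 8 h. KO lists at 0 h reached down to Z-scores of 3.64 and 3.66. No control list held it at any time, although its ranks in KO at 8 h, 38774 and 51291, were within the 114427 hotspots of the littermate list at 8 h. Among all elements, 1.64% were in the 4 KO lists after LPS and in neither KO list at 0 h.

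With KO lists of 111553 hotspots, the -16.8 kb element was the only one of the window in both KO lists at 8 h and in neither at 0 h, a pattern of 5.63% of elements. At 3 h it was joined by the one at +35.9 kb, with 3.99% of all elements gained. The element at -34.7 kb, with Z-scores of 4.95 and 5.32 in KO at 0 h, was the only one in both KO lists at 0 h and in neither at 8 h nor at 3 h, where 2% and 2.21% of all elements were lost. The 10 elements of all KO lists were within this length in each. Of all elements, 33% were in all KO lists of 0 and 8 h and 31.2% in those of 0 and 3 h. The window's counts in this paragraph are of 16 elements in any KO list of 0 or 8 h and of 21 in any of 0 or 3 h.

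The opposite pattern was found at +31.0 kb, from 132946416 to 132947671. The 3 control lists at 8 h and the littermate list at 3 h held this element, and none of the 6 KO lists did. Its Z-scores were 15.5 in the littermate and 17.1 and 13.5 in WT at 8 h, and 4.94 in the littermate at 3 h. Its highest tag densities were 15.3 in the littermate and 12.4 and 11.5 in WT at 8 h, or 46, 37 and 33 steps. It ranked 29126 in the littermate and 24103 and 32729 in WT at 8 h. The KO lists, which held 111553 to 132279 hotspots and ran to Z-scores of 3.40 to 3.66, held no hotspot over it, and 0.113% of all elements were in the 3 control lists at 8 h and in no KO list. This element was in 4 lists and is described because of its pattern, so its share is a description.

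**Figure D4:**
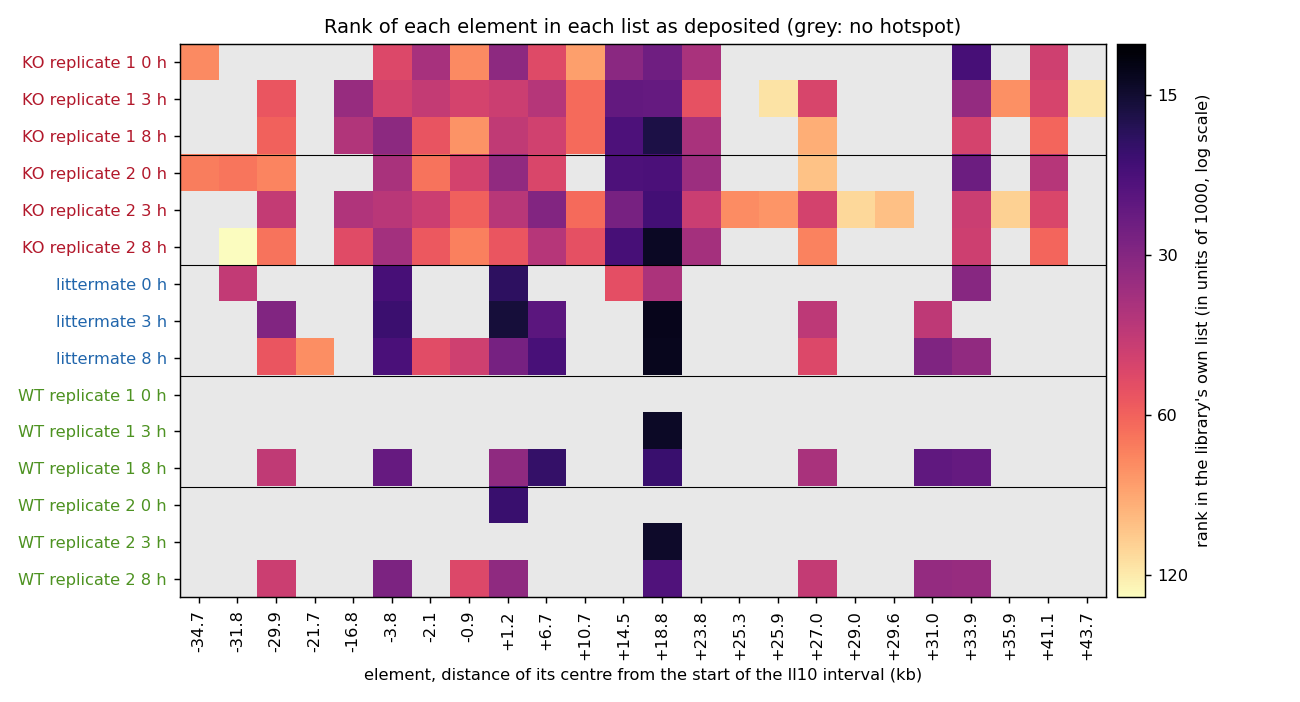
Rank of each of the 24 elements of the Il10 window in each list as deposited, on a log scale, with dark cells for strong hotspots and grey cells for lists without a hotspot. Columns are elements by distance in kb; the +14.5, +23.8 and +41.1 kb columns are filled in KO rows, and the +31.0 kb column in control rows only.

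The 8 h lists, where KO and control libraries were closest in strength though KO was still higher, showed these elements also at equal length. With 48084 hotspots per list, the elements at +14.5 and +23.8 kb were in both KO lists but not in a control list, and the one at +31.0 kb was in all 3 control lists and in neither KO list. Another 3, at -3.8, +18.8 and +33.9 kb, were in all 5. Of all elements, 10.2% were in the KO lists alone, 6.27% in the control lists alone and 50.4% in all 5, and of the 12 elements of the window in any of these lists the counts were 2, 1 and 3. This comparison was chosen after the data were seen. Over all times with 52400 hotspots per list, the +14.5 kb element alone was in all 6 KO and no littermate list, against 3.15% of all elements, and 0 were in all 3 littermate and no KO list, against 0.349%. The -3.8 and +18.8 kb elements were in all 9 lists, a pattern of 20.8% of elements.

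Just upstream of the Il10 interval, 3 elements were in all KO lists, and 1 of them was also in most control lists. That one, at -3.8 kb, from 132911486 to 132912904, was in all 6 KO lists, all 3 littermate lists and both WT lists at 8 h. It ranked 49980, 47471 and 31484 at 0, 3 and 8 h in KO replicate 1 and 37215, 40825 and 35617 in replicate 2. In the littermate it ranked 20799, 19462 and 21194, and in WT 25037 and 28410 at 8 h. The rank numbers do not overlap, but the lists differ in length and strength and other scales do overlap. Z-scores were 8.32 to 19.5 in KO and 7.35 to 21.1 in controls, and at 8 h the rank was 25.1% and 26.9% of the list length in KO, against 18.5% in the littermate and 52.1% and 54.8% in WT.

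The elements at -2.1 and -0.9 kb were weaker and in few control lists. The first was in all 6 KO lists at ranks of 36792 to 65855 and in the littermate at 8 h at rank 51773. The second was in all 6 KO lists at ranks of 47358 to 77175, and at 8 h in the littermate at rank 45881 and in WT replicate 2 at rank 50057. Neither was in a control list at 0 or 3 h.

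Downstream, the element at +6.7 kb, from 132921864 to 132923596, overlaps the end of the Il10 interval. It was in all 6 KO lists, in the littermate at 3 and 8 h and in WT replicate 1 at 8 h. It ranked 50957, 39764 and 46362 at 0, 3 and 8 h in KO replicate 1 and 49248, 29764 and 39973 in replicate 2. In controls it ranked 23502 in the littermate at 3 h, and at 8 h 21045 in the littermate and 18795 in WT replicate 1, where it was the strongest element of the window. It was higher after LPS than at 0 h in both KO series and in the littermate series, and the WT replicate 2 list at 8 h lacked it. The rank numbers of KO and controls again do not overlap, whereas Z-scores do, at 8.11 to 16.8 in KO and 6.53 to 22.1 in controls.

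The element at +33.9 kb, from 132948913 to 132950961, ranked lower after LPS in both KO series by rank number, as did the +1.2, +23.8 and +41.1 kb elements. Other scales did not always give this for the latter 3. At 8 h the +23.8 kb element did so by rank number alone. Its rank was then 29.6% and 27.2% of the list length in KO, against 33.1% and 30.5% at 0 h. The Z-scores of the +23.8 kb element were 16.3 and 18.9 at 8 h, against 12.1 and 12.8 at 0 h. In KO replicate 1 at 3 h the +41.1 kb element had a Z-score of 10.0, against 9.37 at 0 h. Its rank there was 39.9% of the list length, against 41.1%. The highest density of the +1.2 kb element at 8 h was 17.9 in KO replicate 1, against 15.3 at 0 h. In replicate 2 it was 13.3, against 15.4. The ranks of the +33.9 kb element were 20804, 32762 and 47829 at 0, 3 and 8 h in KO replicate 1 and 26083, 44838 and 45690 in replicate 2. Its Z-scores at 8 h were 11.8 and 13.9, against 20.8 and 16.6 at 0 h. In KO replicate 1 at 0 h it was the strongest element of the window. The littermate listed it at rank 30387 at 0 h, not at 3 h, and at 32295 at 8 h. Its Z-score in the littermate was 13.9 at 8 h, against 6.07 at 0 h, which is opposite to KO. As a share of list length the littermate rank was 28.2% at 8 h, against 47.3% at 0 h. WT listed the +33.9 kb element at 8 h alone, at ranks 24898 and 33478. Relative to the +18.8 kb element of the same library its highest density was 1.22, 0.815 and 0.336 at 0, 3 and 8 h in KO replicate 1 and 0.906, 0.536 and 0.352 in replicate 2. In controls at 8 h the ratio was 0.507 in the littermate and 0.714 and 0.762 in WT, above KO as for the other shared elements, and at 0 h it was 1.18 in the littermate. Its own highest densities at 8 h lay close together, at 10.3 and 12.1 in KO, 11.7 in the littermate and 11.7 and 11.1 in WT.

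At -29.9 and +27.0 kb, 2 further elements ranked higher after LPS wherever a direction could be read. The first was in KO replicate 2 alone at 0 h, at rank 71432, and in all 4 KO lists after LPS at ranks of 42972 to 65876. The littermate had it at ranks 29320 and 55501 at 3 and 8 h, and WT at 42119 and 45093 at 8 h. The second was in KO replicate 2 alone at 0 h, at rank 97605, then at 48878 and 47469 at 3 h and 87513 and 70835 at 8 h. In the littermate it ranked 41593 at 3 h and 49878 at 8 h, and in WT 36997 and 43270 at 8 h. The elements at -29.9, +27.0 and +31.0 kb were the 3 of the window that every control list had at 8 h and no control list had at 0 h, against 2.99% of all elements.

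The other 11 elements were each in under 5 lists, those at -16.8 and +31.0 kb and 9 weak ones. Of these 11, 8 were in KO lists only and 5 were in 1 list. Of all elements, in however many lists, 56.1% were in KO lists only. The shares among all elements in under 5 lists were not computed, so these counts describe the window alone. The 3 h libraries of KO held most of the 11 elements. Those at +25.9 and +35.9 kb were in both KO libraries and those at +25.3, +29.0, +29.6 and +43.7 kb in 1. The Z-scores of these 6 ran from 3.60 to 5.19, all below the ends of the WT lists. The -31.8 kb element was in the littermate at 0 h and in KO replicate 2 at 0 and 8 h, and the -21.7 kb element was in the littermate at 8 h alone.

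Regions elsewhere whose rank followed that of the best Il10 interval hotspot over the 15 libraries were picked by Spearman correlation. On chromosome 8 these were 19928712 to 19929241 (rho = 0.961), 19762488 to 19763598 (rho = 0.957) and 71943904 to 71944420 (rho = 0.954). One on chromosome X, 100392847 to 100393354, had rho = 0.954, and one on chromosome 12, 106674010 to 106674748, had rho = 0.95. They came from 76812 regions in at least 5 lists, whose median correlation was 0.354. The Il10 rank itself correlated with list length at 0.732, and all regions share the list lengths, so these values describe the lists and no more.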

How the data were processed

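The authors deposited 1 hotspot list per library, 15 in all, in build mm9, with CASAVA named per the submitters' processing notes. Which aligner and caller were used, and at which threshold, is not given in the sources used here. The deposited columns are, per the file headers, tag density at its highest and on average (a signal), a Z-score (a score) and a p-value. Scores were used only within a list, to rank, shorten or describe it. Lists of a comparison were shortened to equal length by Z-score. Window values were compared by exact permutation over libraries, within genotype for LPS and within time for KO against littermate. P-values were adjusted by Benjamini-Hochberg over 9 tests and called at 0.05. Scripts were checked on simulated lists (Python 3.11.15, NumPy 2.4.6, pandas 2.3.3, Matplotlib 3.10.9).

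The window and lists were chosen with earlier results of these data known. Elements that overlap the Il10 interval or are in at least 5 lists were to be described in full; those at -16.8 and +31.0 kb were added after their values were seen. Annotation of build mm9 was not used here, so no element was assigned to a gene part, and macrophage markers and the targeted gene were not checked. Neighbouring gene names are from RefSeq on GRCm38.p6. Depth is unknown, and no interval was computed.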

Additional observations from a re-analysis of the deposited data

Results flagged for a closer look

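At 8 h against 0 h, 3 elements differed in rank number one way in both KO series and the other way in the littermate series. The lists at 8 h were longer than those at 0 h, and other scales did not always give this. The WT series gave no direction: the element was missing at both times or the 0 h list ended before its rank at 8 h. These differences were not tested. The -3.8 kb element differed by -10047 places on average in KO, with ranks 31484 and 35617 at 8 h, against 49980 and 37215 at 0 h. In the littermate it stood at 21194 at 8 h, against 20799 at 0 h. As a share of list length the littermate rank was 18.5% at 8 h, against 32.4% at 0 h. The littermate Z-score was 21.1 at 8 h, against 7.75, so on both scales the -3.8 kb element went the same way as in KO. The -0.9 kb element differed by 13201 places in KO, with ranks 77175 and 69878 at 8 h against 73293 and 47358 at 0 h. The littermate listed it at 8 h, at rank 45881, and not at 0 h. By Z-score the KO series differed, with 5.47 at 8 h against 4.97 at 0 h in replicate 1 and 6.94 against 8.75 in replicate 2. The +14.5 kb element differed by -5232 places in KO, with ranks 21465 and 20666 at 8 h against 31022 and 21573 at 0 h, while the littermate listed it at 0 h, at rank 52904, and not at 8 h. With 1 littermate library per time these have no replicate check.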

How the results depend on the processing

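No setting brought an adjusted p under 0.05 in any of 99 tests, and 15 had an unadjusted exact permutation p under 0.05. Some of these tests could not reach 0.05. KO against littermate had 3 arrangements with series kept whole and 8 without a KO series, and LPS in KO and littermate alone had 12. At 0.5 times the length all LPS differences were 0. Of 90 alternative values, 83 kept their direction or were 0 in one setting and 7 changed sign. For KO against littermate, covered length was -264.7 bp with lists of 0.5 times the length and -144 bp with WT added, and the best rank in the window differed by -433.8 places when ranked by density. For 3 h against 0 h, the best rank in the Il10 interval differed by 517 places in the lists as deposited, by 1357 at a common Z-score and by 1097 in KO and littermate alone, against -13.6, and the best rank in the window by 14 at a common Z-score, against -892.2. The cause was not tested. For 8 h against 0 h, covered length differed by 5064 bp in the lists as deposited against 585.4 bp, and by 0 bp at 0.5 times the length. The interval rank differed by 12899 places in the lists as deposited and was 0 at equal length, where no library had a hotspot. Leaving out each series in turn moved covered length to 472.3 to 742.3 bp at 8 h, 167.3 to 481.8 bp at 3 h and 4419 to 4444 bp for KO. Elements gained in KO against the littermate were 2 in the lists as deposited against 1, and those in all lists 0 with 50% of an element covered against 2. In lists chosen after seeing the data, KO against all controls at 8 h gave 2 gained, 1 lost and 3 in all, and KO alone gave 1 gained, 1 lost and 10 in all at 8 h, and 2, 1 and 10 at 3 h. With the replicate block, p for covered length was 0.25 at 8 h (585.4 bp) and at 3 h (385.4 bp), and 0.333 with KO series kept whole (4432 bp). Replicate deviations correlated between times at 0.46 to 0.558 in WT and at -0.0307 to 0.0971 in KO, so the numbers do not pair all samples.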
